A study of Homo sapiens with 4 samples.

Results

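The transcripts described here are 10 genes of the Notch pathway, looked up in the tables of all 4 RNA-seq libraries, which list 39323 genes each. They were chosen by name by their role in the pathway, with earlier results of these data known. Counts of members set beside shares of all genes are therefore description only. They are the receptors NOTCH1, NOTCH2 and NOTCH3, the ligands JAG1, JAG2 and DLL1, and the target genes HES1, HEY1, HEYL and NRARP. All 10 were found, and all 10 were among the 12985 genes whose TPM averaged 1 or more over the libraries, called tested genes below.

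Notch receptors are cut after they bind a ligand of the Delta or Jagged family on a neighbouring cell. The released intracellular part enters the nucleus, joins the DNA-binding protein RBPJ and a Mastermind coactivator, and turns on target genes, many of which encode repressors of the HES and HEY families. In muscle stem cells and myoblasts Notch signalling is known to hold back the myogenic programme, and it has been studied in rhabdomyosarcoma, a tumour whose cells carry muscle transcription factors but differentiate poorly.

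RD and JR1 are established cell lines of fusion-negative rhabdomyosarcoma (FN-RMS), the form without a PAX-FOXO1 fusion gene. Cells of each line were infected with a lentiviral pLKO.1-puro vector that carried either shSKP2.2, a short hairpin RNA against SKP2, or shSCR, a non-targeting hairpin. SKP2 is the substrate-binding part of a ubiquitin ligase that marks cell cycle inhibitors for degradation. The study asked what the loss of SKP2 does to differentiation, senescence and tumour growth of FN-RMS cells. There was 1 poly-A RNA library for each line and condition, so a change within a line stands without replicates or a p-value, and the test over both lines given below takes the lines as its replicates. The control libraries also carry a lentivirus and a hairpin. Uninfected cells and a second hairpin were not analysed here, so an effect of this hairpin on genes other than SKP2 cannot be told apart from the loss of SKP2.

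Expression is given as TPM, a relative transcript abundance corrected for library total and taken per length of transcript that allows levels of different genes to be set side by side within a library. The number of reads cannot be recovered from TPM, and the depth behind each value is unknown. The log2 change of a gene is log2((shSKP2 TPM + 1)/(shSCR TPM + 1)) within a line, which understates the change of low genes, and a gene is said to have risen or fallen where this change was at least 1 in size, that is 2-fold. The targeted transcript SKP2 was at 92.8 TPM in RD shSCR, 7.40 in RD shSKP2, 46.5 in JR1 shSCR and 2.72 in JR1 shSKP2. On the log2 scale this is -3.48 for RD and -3.67 for JR1. Short structural RNAs took between 58.6% and 72.1% of all TPM, with the higher share in the shSKP2 library of each line (69.1% against 58.6% in RD, 72.1% against 66.5% in JR1). Over all tested genes the median log2 change was -0.27 (RD) and -0.21 (JR1). For this reason the text also gives changes centred, after subtraction of this median, and rescaled, after removal of 2989 structural RNA genes. After rescaling the median was 0.12 (RD) and 0.01 (JR1), over the 15218 genes that then averaged 1 TPM or more. In bulk RNA, fewer cells that express a gene and less of its RNA per cell cannot be told apart.

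With TPM as deposited, the target genes HES1 and HEYL and the receptor NOTCH3 fell in both lines, and the ligand JAG2 was higher in both. The change was below 0 for 8 of the 10 members in RD and 9 in JR1, but also for 75.0% and 68.9% of all tested genes. In RD 3 of the 10 members fell (NOTCH3, HES1 and HEYL) and 1 rose (JAG2), where 7.37% of all tested genes fell and 1.08% rose. In JR1 5 fell (NOTCH3, JAG1, HES1, HEYL and NRARP) and 0 rose, where 9.05% of all tested genes fell and 1.78% rose. NOTCH3, HES1 and HEYL fell in both lines, 3 of 10 members where 4.79% of the tested genes did so, and 0 members rose in both, where 0.539% did. The members had a median log2 change of -0.51 (RD) and -1.06 (JR1), which became -0.24 and -0.85 when centred and -0.15 and -0.83 when rescaled. The split of the calls moved with the scaling: after rescaling 2 members fell and 2 rose in RD (HES1 and HEYL against JAG2 and DLL1), and 4 fell and 1 rose in JR1 (NOTCH3, HES1, HEYL and NRARP against JAG2). With that scaling 15218 genes reached the minimum of 1 TPM, of which 2.46% fell in both lines and 1.87% rose in both. Among the members HES1 and HEYL then fell in both and JAG2 rose in both. Shares of all genes for each line alone were not computed with that scaling.

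The libraries pair by line, so the hairpin could be tested with limma over all tested genes, with the line as a block and 1 residual degree of freedom, a test added after seeing the data. At an adjusted p under 0.05, 6 members were lower in shSKP2 (NOTCH2, NOTCH3, HES1, HEY1, HEYL and NRARP), where 26.6% of all tested genes were, and 1 was higher (JAG2), where 3.84% were. HES1 had a mean log2 change of -2.11 ± 0.14 (SE, limma adjusted p = 0.000845) and HEYL of -1.71 ± 0.14 (adjusted p = 0.00119). For NOTCH3 it was -1.67 ± 0.23 (adjusted p = 0.00418), and for JAG2 0.99 ± 0.13 (adjusted p = 0.00386). These 4 genes also passed when centred and when rescaled, whereas NOTCH2, HEY1 and NRARP did not pass after rescaling (adjusted p = 0.0938, 0.0619 and 0.124) and NRARP not when centred either (0.104). NOTCH1, JAG1 and DLL1 did not pass (adjusted p = 0.108, 0.0672 and 0.596), and JAG1 passed with 0.1 TPM added in place of 1 (0.0479). No member passed without the block or over all genes above 0 TPM, where limma's adjusted p was at least 0.179 and 0.087. Few genes of any kind passed there. Without the block 0.0385% of the tested genes were lower and 0.0154% higher, and over all genes above 0 TPM 0 passed.

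**Figure D1:**
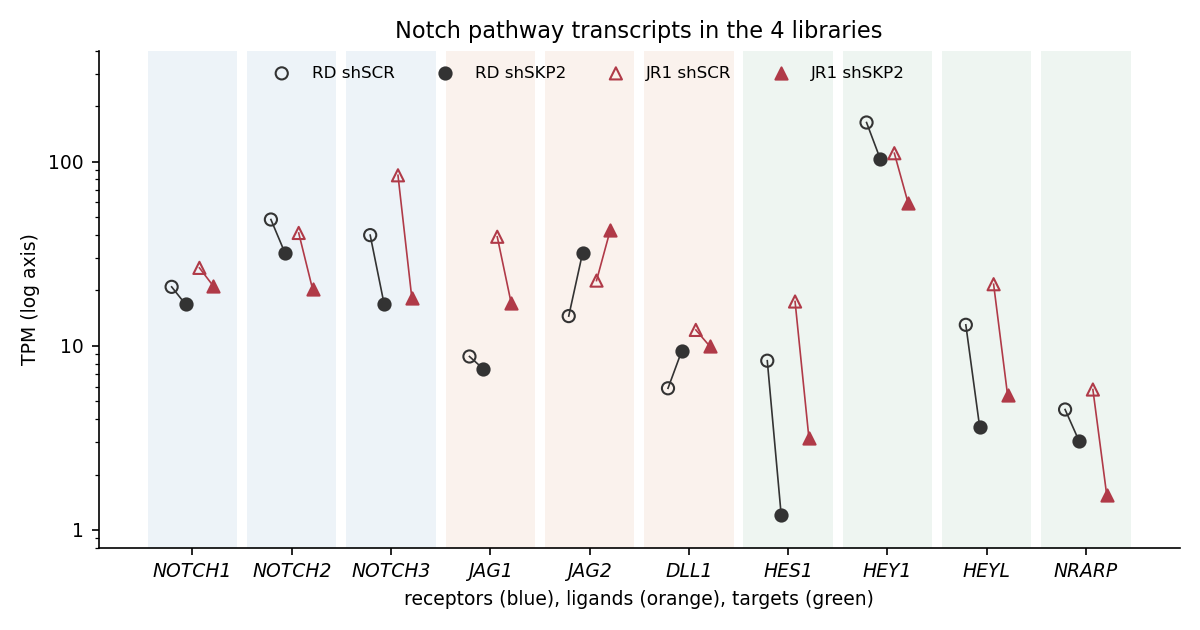
TPM of the 10 members (log axis) in the 4 libraries, 1 symbol per library, with lines that join shSCR (open) to shSKP2 (filled) of the same line. HES1 and HEYL lie lower in the shSKP2 library of both lines, JAG2 lies higher in both, and HEY1 is the most abundant member in every library (59.3 to 163.1 TPM).

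The receptors differed in how far they moved, and NOTCH3 moved most. NOTCH3 (chromosome 19, 15159038 to 15200995) encodes a receptor best known from smooth muscle and pericytes and also made by myogenic cells. Its transcript stood at 39.9 TPM in RD shSCR, 16.9 in RD shSKP2, 84.3 in JR1 shSCR and 18.1 in JR1 shSKP2. The control libraries were thus far apart while the shSKP2 libraries reached nearly the same level. NOTCH3 was 2.36-fold lower in RD and 4.65-fold lower in JR1, with log2 changes of -1.19 and -2.16. In JR1 it ranked 92 from the lowest of all tested genes, and in RD 569. The call in RD did not hold under the other scalings, where the change was -0.92 centred and -0.81 rescaled, whereas in JR1 it was -1.94 under both.

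NOTCH2 (chromosome 1, 119911553 to 120069662), a broadly expressed receptor, was the most abundant receptor in RD, at 48.5 TPM in shSCR and 32.1 in shSKP2. In JR1 it was at 41.0 TPM in shSCR and 20.3 in shSKP2. Its log2 changes, -0.58 (RD) and -0.98 (JR1), did not reach the limit in either line, and the JR1 value crossed it with 0.1 TPM added in place of 1 (-1.01). The value is uncertain because human genomes hold NOTCH2NL genes, near-identical partial copies of NOTCH2, among which reads may have been split. The 4 copies in the tables (NOTCH2NLA, NOTCH2NLB, NOTCH2NLC and NOTCH2NLR) were listed at 0.980 to 8.45 TPM. With the copies added to NOTCH2, a sum chosen after seeing the data, the changes were -0.45 (RD) and -0.92 (JR1).

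NOTCH1 (chromosome 9, 136494433 to 136546048), the receptor that is mutated in T cell leukaemia, moved least of the receptors. It was at 20.9 TPM in RD shSCR, 16.8 in RD shSKP2, 26.5 in JR1 shSCR and 21.1 in JR1 shSKP2. Its log2 changes of -0.31 (RD) and -0.32 (JR1) were close to the median of all tested genes in both lines, and its sign in RD turned after rescaling (0.10). NOTCH4, a receptor of blood vessels that is no member, was listed at no more than 0.130 TPM in any library.

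The make-up of the receptor transcripts shifted away from NOTCH3 in both lines, a comparison within each library that does not depend on its scaling. The summed TPM of the 3 receptors was 109.4 in RD shSCR, 65.7 in RD shSKP2, 151.8 in JR1 shSCR and 59.5 in JR1 shSKP2. NOTCH3 made up 36.5% of this sum in RD shSCR and 25.7% in RD shSKP2. In JR1 its share was 55.5% in shSCR, more than both other receptors together, and 30.4% in shSKP2. The share of NOTCH1 was higher in shSKP2 in both lines, at 25.5% against 19.1% in RD and 35.4% against 17.5% in JR1. The ratio of NOTCH3 to NOTCH1 therefore went from 1.91 to 1.01 in RD and from 3.18 to 0.859 in JR1, where the order of these receptors turned.

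The ligands moved in different directions. JAG2 (chromosome 14, 105140981 to 105168776), a Jagged ligand, was at 14.5 TPM in RD shSCR, 32.0 in RD shSKP2, 22.6 in JR1 shSCR and 42.8 in JR1 shSKP2. Both shSKP2 libraries lay above both shSCR libraries. JAG2 was 2.20-fold higher in RD and 1.89-fold higher in JR1, with log2 changes of 1.09 and 0.89, so that it rose in RD and stayed below the limit in JR1. It passed the limit in JR1 once centred (1.10) or rescaled (1.17), and in RD the values were 1.36 and 1.53. Counted from the highest change, JAG2 ranked 121 of all tested genes in RD and 313 in JR1.

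JAG1 (chromosome 20, 10637684 to 10673999), the other Jagged ligand and the gene mutated in Alagille syndrome, separated the lines. It was at 8.75 TPM in RD shSCR, 7.49 in RD shSKP2, 39.1 in JR1 shSCR and 17.1 in JR1 shSKP2. JAG1 fell in JR1 with a log2 change of -1.14, and its change of -0.20 in RD turned sign when centred (0.07) or rescaled (0.19). In JR1 the call was lost under both scalings, at -0.93 and -0.92.

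DLL1 (chromosome 6, 170282200 to 170291078), a Delta ligand that myogenic cells present to muscle stem cells, was at 5.88 TPM in RD shSCR, 9.42 in RD shSKP2, 12.2 in JR1 shSCR and 9.96 in JR1 shSKP2. Its log2 change was 0.60 for RD and -0.27 for JR1. Centred it was 0.87 and -0.06, and rescaled 1.05 and -0.03, so the value in JR1 stayed below 0 under each scaling by a small margin. DLL1 overlaps FAM120B on the opposite strand. FAM120B was at 15.7 to 21.4 TPM, and although the libraries were directional, the sources used here do not say whether strand was used when transcripts were quantified.

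In both lines JAG2 took a larger share of the ligand transcripts after SKP2 depletion. The summed ligand TPM was 29.2 in RD shSCR, 48.9 in RD shSKP2, 73.9 in JR1 shSCR and 69.8 in JR1 shSKP2. JAG2 made up 49.8% of it in RD shSCR and 65.4% in RD shSKP2. In JR1 its share was 30.6% in shSCR and 61.2% in shSKP2. JAG1 gave way in both lines, from 30.0% to 15.3% in RD and from 52.9% to 24.5% in JR1, while the share of DLL1 stayed between 14.3% and 20.2%. The ratio of JAG2 to JAG1 went from 1.66 to 4.27 in RD and from 0.579 to 2.50 in JR1, where JAG1 was the more abundant of the pair in shSCR and JAG2 in shSKP2.

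**Figure D2:**
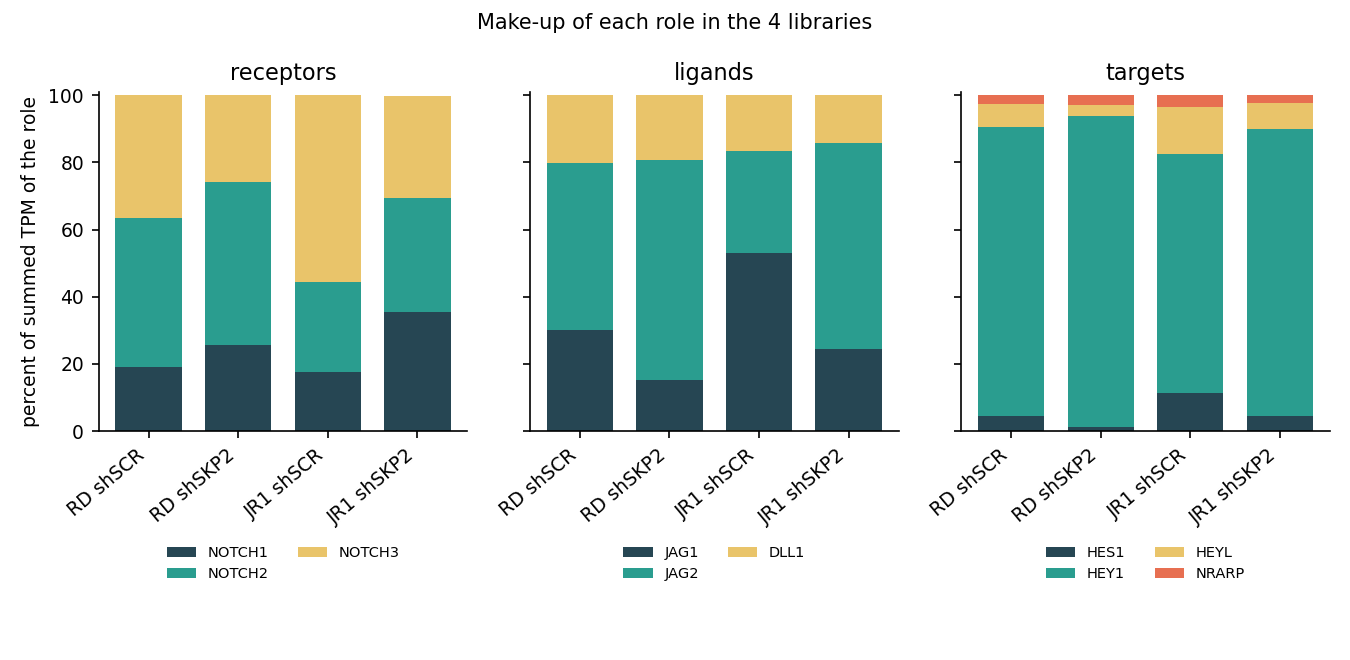
Share of each member in the summed TPM of its role (percent), with 1 bar per library for receptors, ligands and targets. The NOTCH3 share is smaller in the shSKP2 library of both lines (25.7% and 30.4%), the JAG2 share is larger (65.4% and 61.2%), and HEY1 makes up 71.3% to 92.9% of the target transcripts.

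The target genes were the role with the lowest changes, with medians of -1.13 (RD) and -1.61 (JR1), against -0.58 and -0.98 for the receptors. HES1 (chromosome 3, 194136148 to 194138732), a repressor of the basic helix-loop-helix class and the most studied direct Notch target, was at 8.30 TPM in RD shSCR, 1.21 in RD shSKP2, 17.4 in JR1 shSCR and 3.14 in JR1 shSKP2. Both shSKP2 libraries lay below both shSCR libraries. HES1 was 6.86-fold lower in RD and 5.55-fold lower in JR1, with log2 changes of -2.07 and -2.15. It was the lowest change of all members in RD, ranked 68 from the lowest of all tested genes there and 94 in JR1. Under each scaling it fell in both lines, at -1.80 and -1.94 centred and -2.10 and -2.11 rescaled.

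HEYL (chromosome 1, 39623435 to 39639643), a repressor of the HEY family, had the same pattern at a smaller size. It was at 13.0 TPM in RD shSCR, 3.61 in RD shSKP2, 21.6 in JR1 shSCR and 5.44 in JR1 shSKP2. HEYL was 3.60-fold lower in RD and 3.97-fold lower in JR1, with log2 changes of -1.60 and -1.81. Here too both shSKP2 libraries lay below both shSCR libraries, and the gene fell under each scaling, with -1.35 (RD) and -1.68 (JR1) after rescaling.

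The sequence before the start of these genes is shown because HES1, HEYL and a further HES gene described below, HES4, fell in both lines and hold the same word there, while NRARP, a target that fell in JR1, does not. The word is GTGGGAA, the core of the sequence that RBPJ, the DNA-binding partner of Notch, is known to prefer. It was searched on both strands together with its shorter form TGGGAA, which every GTGGGAA contains. Each sequence is the 250 bases before a start in RefSeq on GRCh38.p14, in the direction of the gene, with the words in capitals. HES1 is at chr3:194135898-194136147 (+), HEYL at chr1:39639644-39639893 (−), HES4 at chr1:1000098-1000347 (−) and NRARP at chr9:137302272-137302521 (−).
HES1: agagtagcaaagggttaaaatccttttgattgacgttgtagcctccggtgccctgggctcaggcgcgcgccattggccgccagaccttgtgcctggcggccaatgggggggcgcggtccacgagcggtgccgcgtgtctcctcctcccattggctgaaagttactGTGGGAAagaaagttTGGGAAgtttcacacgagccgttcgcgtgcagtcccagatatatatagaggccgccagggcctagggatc
HEYL: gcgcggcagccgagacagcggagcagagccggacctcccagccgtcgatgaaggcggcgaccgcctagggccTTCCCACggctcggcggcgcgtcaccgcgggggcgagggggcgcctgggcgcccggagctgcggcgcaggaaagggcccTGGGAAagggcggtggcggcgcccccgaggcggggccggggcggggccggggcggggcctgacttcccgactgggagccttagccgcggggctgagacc
HES4: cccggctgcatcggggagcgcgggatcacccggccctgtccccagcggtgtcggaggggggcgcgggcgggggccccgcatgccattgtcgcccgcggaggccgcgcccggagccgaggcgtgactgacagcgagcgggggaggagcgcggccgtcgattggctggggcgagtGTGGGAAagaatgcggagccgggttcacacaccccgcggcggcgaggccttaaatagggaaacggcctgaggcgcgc
NRARP: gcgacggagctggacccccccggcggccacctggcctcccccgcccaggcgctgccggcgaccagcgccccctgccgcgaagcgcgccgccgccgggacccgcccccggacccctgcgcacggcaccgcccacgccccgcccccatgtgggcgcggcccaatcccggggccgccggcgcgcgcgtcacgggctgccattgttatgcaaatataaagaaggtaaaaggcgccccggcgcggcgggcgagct
In HES1 a GTGGGAA begins 85 bases before the start and a further TGGGAA 70 bases before it, on the same strand. In HEYL the GTGGGAA lies 178 bases before the start on the opposite strand, and a TGGGAA stands 99 bases before it. In HES4 the GTGGGAA begins 77 bases before the start of its entry. Unlike the other stretches printed, this one lies inside the gene as deposited (998962 to 1001052), not before it. Of the 10 members, 8 were searched, all but HEY1 and DLL1. HES1 and HEYL were the only 2 of these with GTGGGAA or TGGGAA. Outside the members, only further pathway genes past the limit the same way in both lines were searched, which are HES4, LFNG and NEURL1. HES6, HES7 and HEY1, a target that stayed within the limit in both lines, were not searched. It therefore cannot be said whether the word goes with the fall among HES and HEY genes. NEURL1, which rose in both lines, holds TGGGAA 138 bases before its start, and an entry of LFNG, which fell in both, holds it 248 bases before. Of 35116 promoters of this length, 5.43% hold GTGGGAA and 20.8% TGGGAA. NOTCH3 and LFNG, which also fell in both lines, hold no GTGGGAA in their entries, and the genes printed were picked after their changes had been seen. A match describes these letters only and does not show that RBPJ binds there.

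NRARP (chromosome 9, 137299631 to 137302271), a small ankyrin repeat protein that Notch induces and that limits Notch activity, differed between the lines. It was at 4.51 TPM in RD shSCR, 3.05 in RD shSKP2, 5.79 in JR1 shSCR and 1.54 in JR1 shSKP2. NRARP fell in JR1, where it was 3.76-fold lower with a log2 change of -1.42, while its change in RD was -0.44 and -0.13 after rescaling. It was the least abundant member in both shSCR libraries, and only HES1 was lower in RD shSKP2.

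HEY1 (chromosome 8, 79764010 to 79767767), a repressor of the HEY family, was by far the most abundant member and moved least of the targets in JR1. It was at 163.1 TPM in RD shSCR, 102.8 in RD shSKP2, 111.1 in JR1 shSCR and 59.3 in JR1 shSKP2. Its log2 changes, -0.66 (RD) and -0.89 (JR1), did not reach the limit, and after rescaling it was -0.24 and -0.64. HEY1 was higher in RD than in JR1 in both conditions, unlike HES1 and HEYL.

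In both lines HEY1 took a larger share of the target transcripts after SKP2 depletion, and HES1 and HEYL a smaller share. The summed target TPM was 188.9 in RD shSCR, 110.7 in RD shSKP2, 155.9 in JR1 shSCR and 69.4 in JR1 shSKP2. HEY1 made up 86.3% of it in RD shSCR and 92.9% in RD shSKP2, and 71.3% and 85.4% in JR1. The share of HES1 went from 4.39% to 1.09% in RD and from 11.2% to 4.52% in JR1. The share of HEYL went from 6.88% to 3.26% in RD and from 13.9% to 7.83% in JR1. For every HES1 transcript there were 19.7 of HEY1 in RD shSCR and 85.0 in RD shSKP2, and 6.38 and 18.9 in JR1.

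**Figure D3:**
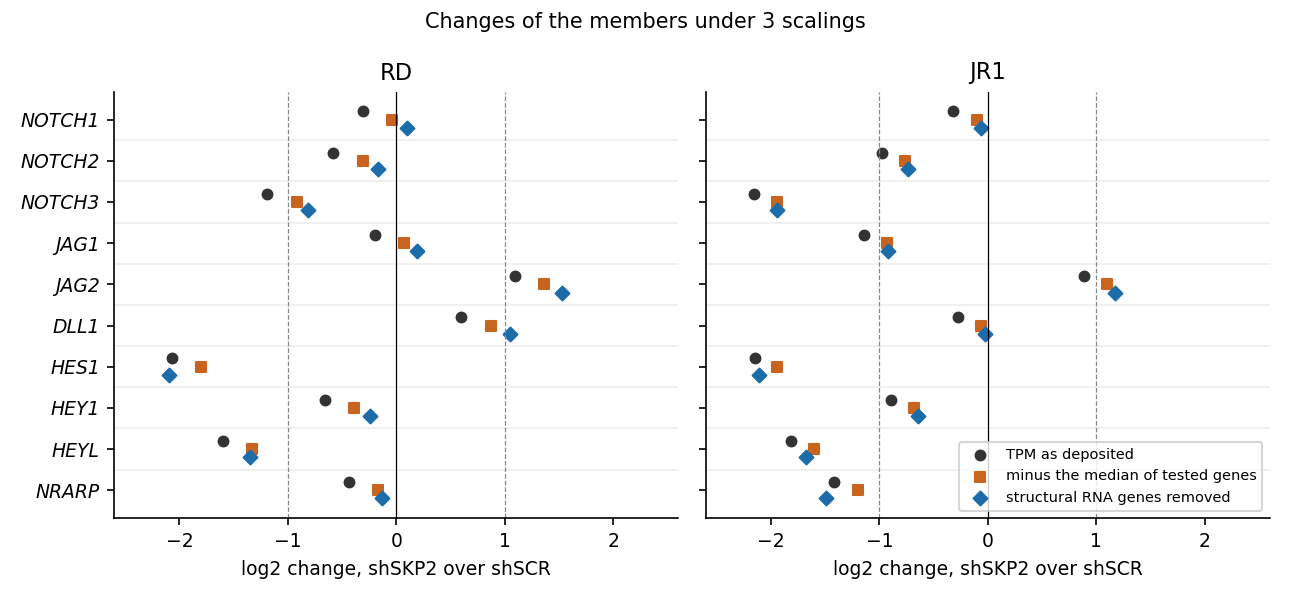
Log2 change of each member in RD (left) and JR1 (right), shSKP2 over shSCR, for TPM as deposited (circles), minus the median over tested genes (squares) and with structural RNA genes removed (diamonds), where dashed lines mark the 2-fold limit. HES1 and HEYL lie past -1 under all 3 scalings in both lines, NOTCH3 does so in JR1 only, and in RD the sign turns for JAG1 when centred (0.07) or rescaled (0.19) and for NOTCH1 when rescaled (0.10).

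Across the members the changes in RD and JR1 were of the same sign for all but DLL1 with TPM as deposited, as the plot of the changes in both lines shows, while centring and rescaling turned JAG1 in RD and rescaling NOTCH1. The largest gaps between the lines were those of NRARP (0.97), NOTCH3 (0.96), JAG1 (0.95) and DLL1 (0.87), each with the change in RD above that in JR1. Of all tested genes, 2.92% had a gap larger than that of NRARP, 2.99% than that of NOTCH3, 3.21% than that of JAG1 and 4.14% than that of DLL1. For the other members the gap was at most 0.40. With 1 library per line and condition none of these gaps could be tested.

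**Figure D4:**
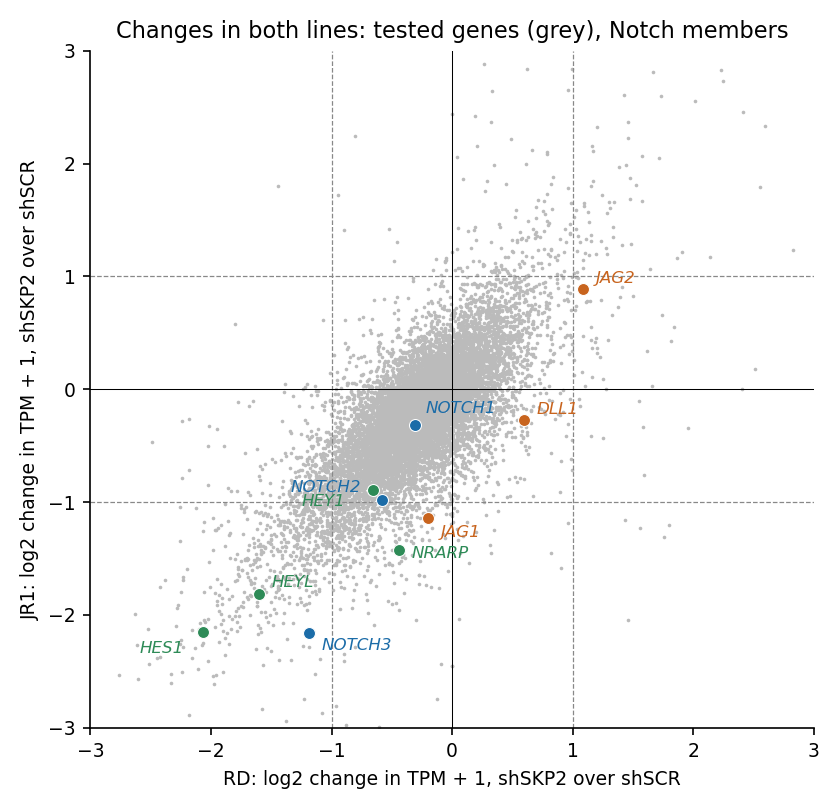
Log2 change in RD (horizontal) and JR1 (vertical), shSKP2 over shSCR of TPM + 1 as deposited, for tested genes (grey) and the 10 members (receptors blue, ligands orange, targets green), where 78 tested genes lie outside the plotted range of 3 on either side. HES1 and HEYL lie near the diagonal in the lower left, NOTCH3, JAG1 and NRARP lie lower in JR1 than in RD, and JAG2 lies in the upper right, while JAG1 and NOTCH1 change sign in RD under other scalings.

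The control libraries of the lines also differed in some of these transcripts. In shSCR, 2 of the 10 members differed by at least 1 on the log2 scale between the lines, NOTCH3 and JAG1, where 9.94% of the tested genes did so in either direction. NOTCH3 was lower in RD by a log2 difference of -1.06 and JAG1 by -2.04. HES1 at -0.99 and DLL1 at -0.94 lay just short of the limit, and both passed it once rescaled (-1.33 and -1.30). In shSKP2 only JAG1 differed by that much, at -1.09, where 8.09% of the tested genes did. HES1 was at -0.91 there and passed the limit centred (-1.08), rescaled (-1.32) and with 0.1 TPM added in place of 1 (-1.31). The difference in NOTCH3 between the lines was -0.09 in shSKP2 and that in DLL1 -0.07. Over the members the median of RD minus JR1 was -0.65 in shSCR and -0.21 in shSKP2, against 0.23 and 0.17 over all tested genes. HEY1 was higher in RD in both conditions (0.55 and 0.78), as was NOTCH2 (0.24 and 0.63), although rescaling turned the NOTCH2 difference in shSCR (-0.06).

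The order of abundance also moved. In RD shSCR the members followed from HEY1 through NOTCH2, NOTCH3, NOTCH1, JAG2, HEYL, JAG1, HES1 and DLL1 to NRARP. In RD shSKP2 JAG2 (32.0 TPM) stood level with NOTCH2 (32.1), NOTCH3 (16.9) stood level with NOTCH1 (16.8), and HES1 was last. In JR1 shSCR HEY1 was followed by NOTCH3, NOTCH2 and JAG1, and in JR1 shSKP2 by JAG2, NOTCH1, NOTCH2, NOTCH3 and JAG1, the last 4 of them within 17.1 to 21.1 TPM. Without replicates it cannot be said which neighbours in these orders differ beyond their spread.

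Of 56 further pathway genes in 8 lists, 46 were tested, with median log2 changes of -0.23 (RD) and -0.09 (JR1), close to the median of all tested genes in RD (-0.27) and above it in JR1 (-0.21). In RD 3 of the 46 fell (LFNG, RFNG and HES4) and 2 rose (DNER and NEURL1), where 7.37% of all tested genes fell and 1.08% rose. In JR1 4 fell (LFNG, HES4, DTX4 and HES7) and 1 rose (NEURL1), where 9.05% fell and 1.78% rose. RFNG, DNER, DTX4 and HES7 are named here after their values were seen. LFNG and HES4 fell in both lines and NEURL1 rose in both, 2 and 1 of the 46 where 4.79% and 0.539% of all tested genes did so.

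HES4, a HES family repressor, was the most abundant of its family outside the members, at 41.0 TPM in RD shSCR, 14.8 in RD shSKP2, 66.9 in JR1 shSCR and 18.2 in JR1 shSKP2. Its log2 changes were -1.41 (RD) and -1.82 (JR1). In RD this lay between those of HEYL and NOTCH3. After rescaling the changes were -1.03 and -1.60. Of the 7 further HES and HEY genes only HES4, HES6 and HES7 were tested. HEY2 was at no more than 0.210 TPM and HES5 was listed at 0 in all 4 libraries.

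LFNG, a glycosyltransferase of the Fringe family that changes which ligands a Notch receptor answers to, was at 9.10 TPM in RD shSCR, 3.45 in RD shSKP2, 5.76 in JR1 shSCR and 1.23 in JR1 shSKP2. It fell by 1.18 in RD and 1.60 in JR1, and the RD value was -0.92 after rescaling. RFNG, a related enzyme, was at 15.1 TPM in RD shSCR, 6.31 in RD shSKP2, 11.6 in JR1 shSCR and 5.63 in JR1 shSKP2. It fell in RD with a log2 change of -1.14, and had a change of -0.92 in JR1. After rescaling the RFNG call in RD was lost (-0.81). POFUT1, which adds the fucose that Fringe enzymes extend and was the most abundant of the 4 tested glycosylation genes, had changes of -0.64 and -0.74. Over the 4 genes the median change was -0.89 (RD) and -0.83 (JR1).

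NEURL1, a ubiquitin ligase that can act on Notch ligands, was at 0.590 TPM in RD shSCR, 3.38 in RD shSKP2, 1.16 in JR1 shSCR and 9.10 in JR1 shSKP2. It rose by 1.46 in RD and by 2.23 in JR1 on the log2 scale, from levels near the minimum for testing. The other ligand ubiquitylation genes stayed within the limit, among them MIB2, the most abundant, with 0.10 in RD and -0.09 in JR1. DLK2, the most abundant of the further ligands, had changes of -0.39 and -0.08.

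No gene of the machinery that cuts the receptors and acts in the nucleus passed the 2-fold limit. This held for 9 of 9 tested receptor cleavage genes, 5 of 5 of the activation complex and 9 of 9 corepressors, in either line. In the limma fit FURIN, NCSTN, APH1A, PSENEN and the corepressor TLE1 were lower (adjusted p = 0.0391, 0.0135, 0.0165, 0.0357 and 0.0354). After rescaling their changes lay between -0.41 and 0.01 in RD and between -0.29 and -0.12 in JR1. Of the 46 further genes 12 were lower and 2 higher in that fit, where 26.6% and 3.84% of all tested genes were. With structural RNA genes removed 3 were lower and 8 higher, where 9.29% and 9.73% of genes were. APH1A, a subunit of gamma-secretase and the most abundant cleavage gene, was at 122.7 TPM in RD shSCR, 78.0 in RD shSKP2, 88.5 in JR1 shSCR and 60.5 in JR1 shSKP2. RBPJ was at 21.8 TPM in RD shSCR, 22.3 in RD shSKP2, 20.7 in JR1 shSCR and 26.3 in JR1 shSKP2, with log2 changes of 0.03 (RD) and 0.33 (JR1). HDAC1, a histone deacetylase of corepressor complexes, had changes of -0.04 and 0.14. Of the 9 negative regulators, DTX4 alone fell, in JR1, and the most abundant, DTX3, had changes of -0.71 and -0.48.

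A list of 8 genes tied to the quiescence of muscle stem cells, several of them known Notch targets there, was also looked up. Of its 6 tested genes PAX7, COL5A1, COL5A3 and COL6A2 fell in both lines, where 4.79% of all tested genes did so, and these names were chosen after their values were seen. After rescaling COL5A1 in RD was just short of the limit (-0.99). COL5A3 was low in RD, at 2.09 TPM in shSCR and 0.160 in shSKP2, and was at 23.1 and 7.56 TPM in JR1. COL6A1, the most abundant gene of the list, had changes of -0.97 (RD) and -0.94 (JR1). SPRY1, an inhibitor of receptor kinase signalling, had changes of -0.74 (RD) and -0.16 (JR1), the latter with its sign turned after rescaling (0.10). PAX7, a transcription factor of muscle stem cells, was at 10.8 TPM in RD shSCR, 3.36 in RD shSKP2, 4.84 in JR1 shSCR and 1.16 in JR1 shSKP2. COL6A2, a chain of collagen VI, was at 68.5 TPM in RD shSCR, 16.2 in RD shSKP2, 126.0 in JR1 shSCR and 42.9 in JR1 shSKP2. Over the 6 genes the median change was -1.40 (RD) and -1.42 (JR1). MYF5 was listed at 0 in all libraries, and CALCR at no more than 0.0100 TPM.

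For the most abundant member of each role, the 3 tested genes with the nearest pattern over the 4 libraries were found, by the distance between log2(TPM + 1) values after each gene's own mean was subtracted. For NOTCH3 these were APOC1 (distance 0.15), ISG20 (0.17) and PCOLCE (0.23). APOC1, an apolipoprotein, was at 7.60 TPM in RD shSCR, 2.32 in RD shSKP2, 15.5 in JR1 shSCR and 2.56 in JR1 shSKP2. For JAG2 they were TRIM63 (0.12), LINC01894 (0.14) and AOC2 (0.18), of which TRIM63 encodes a ubiquitin ligase of striated muscle and was at 1.04 to 5.12 TPM. For HEY1 they were SNRPA1 (0.02), ZNF85 (0.02) and TXNDC16 (0.04). With 4 libraries many genes lie close to any pattern.

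The labelled cell type was checked against its markers. MYOD1, the muscle transcription factor that defines rhabdomyosarcoma with MYOG and desmin, was at 87.0 to 131.1 TPM, and MYF5 was the marker at 0 in every library. The summed TPM of the 7 muscle markers was 271.5 in RD shSCR, 277.4 in RD shSKP2, 365.7 in JR1 shSCR and 404.3 in JR1 shSKP2. Within the list MYOG, a factor of differentiating muscle cells, was at 31.6 TPM in RD shSCR, 58.4 in RD shSKP2, 54.0 in JR1 shSCR and 107.2 in JR1 shSKP2, and FGFR4, a receptor kinase, fell from 49.3 to 12.6 TPM and from 46.9 to 17.3. The other markers above 0 moved in different directions. In RD and JR1 the log2 changes were -0.76 and -0.60 for CHRND and 0.14 and -0.50 for DES. They were 0.11 and 0.38 for MYOD1 and 0.33 and 0.38 for CDH15. The part of these markers in the changes of the Notch genes was not tested. Of 6 endothelial markers only TEK was above 0.380 TPM, at 2.55 to 6.37, with KDR listed at 0 in all 4 libraries. Of 6 haematopoietic markers CD68 was at 2.28 to 2.87 TPM and PTPRC at no more than 0.0100. Of 6 epithelial markers CLDN4 was at 5.76 TPM in RD shSCR, 1.63 in RD shSKP2, 4.12 in JR1 shSCR and 1.01 in JR1 shSKP2, and EPCAM was at no more than 0.160.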

How the data were processed

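RNA was extracted from RD and JR1 cells infected with lentivirus that carried the control or the SKP2 hairpin, in 4 libraries. Per the submitters' processing notes and the methods of the study, the authors selected poly-A RNA, made directional paired-end libraries, used STAR 2.7.9a for alignment against GRCh38 and RSEM 1.3.2 for the deposited TPM per gene. TPM sum to a fixed total in each library, so a larger share of structural RNA lowers the TPM of all other genes, and read depth is unknown. The deposited TPM, given to 2 decimals with gene positions, were used without further normalization.

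A gene was compared if its TPM averaged 1 or more across libraries (12985 of 39323). Changes within a line could not be tested. The hairpin over both lines was tested with limma 3.58.1 (R 4.3.3) on log2(TPM + 1) with the line as a block and Benjamini-Hochberg adjustment, a fit added after seeing the data. With 1 residual degree of freedom its p-values rest on a spread borrowed across genes, which was recovered imprecisely in simulated data, so that they can be too small. The alternatives tried were a limit of 1.5-fold, a filter at a mean of 5 TPM, a filter that kept every gene above 0 TPM, 0.1 TPM as the pseudocount, centring on the median change, and rescaling after structural RNA genes had been removed by symbol. The sum of NOTCH2 and its copies was added after seeing the data. Named genes are the members, SKP2, in each further list the most abundant gene and genes past the limit the same way in both lines, the 3 nearest patterns of NOTCH3, JAG2 and HEY1, and the most abundant marker of each cell type. Others were named after their values were seen. The members and all lists, written from general knowledge, were chosen with earlier results of these data known. Promoters came from RefSeq (GRCh38.p14). The scripts were tested on simulated data. Values were computed in Python 3.11.15 (pandas 2.3.3, numpy 2.4.6) and plotted with matplotlib 3.10.9.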

Additional observations from a re-analysis of the deposited data

Results flagged for a closer look

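Among the 35 named genes, 3 had log2 changes of opposite sign in RD and JR1, which 21.3% of all tested genes had as well. With 1 library per line and condition the difference between the lines was not tested for any of them. DLL1 had log2 changes of 0.60 (RD) and -0.27 (JR1), which differ by 0.87, and kept opposite signs when centred (0.87 and -0.06) and rescaled (1.05 and -0.03). MIB2, a ubiquitin ligase for Notch ligands, changed by 0.10 and -0.09, a difference of 0.20, and lay above 0 in both lines after rescaling (0.52 and 0.16). HDAC1 changed by -0.04 and 0.14, a difference of -0.18, and also lay above 0 in both lines after rescaling (0.38 and 0.40).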

How the results depend on the processing

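In the limma fit with the line as replicate block, 6 members were lower and 1 higher at an adjusted p under 0.05. With structural RNA genes removed 3 members were lower and 1 higher, where 9.29% and 9.73% of genes were. Over all genes above 0 TPM 0 members passed, as did 0 of all 26036 genes. With no replicate block 0 members passed, where 0.0385% of the tested genes were lower and 0.0154% higher. In these last settings limma gave 7 and 6 members an unadjusted p under 0.05, and also 5778 of 26036 and 2060 of 12985 genes. Of 240 changes and line differences of single members under an alternative, 205 kept their sign and side of the limit, 4 lost the call, 27 gained it and 4 turned sign. Those that turned were NOTCH1 in RD (0.10) and JAG1 in RD (0.19) with structural RNA genes removed, JAG1 in RD when centred (0.07), and NOTCH2 between the lines in shSCR (-0.06) with structural RNA genes removed. The median of the members in RD was -0.24 centred and -0.15 with structural RNA genes removed. Members that rose in RD numbered 2 with structural RNA genes removed and 2 at 1.5-fold, and in JR1 1 when centred, 1 with structural RNA genes removed and 1 at 1.5-fold. Members that differed between the lines in shSCR numbered 4 with a pseudocount of 0.1 TPM, 4 when centred, 5 with structural RNA genes removed and 6 at 1.5-fold, and in shSKP2 2, 2, 2 and 5. Further pathway genes that fell in both lines numbered 1 when centred, 1 with structural RNA genes removed, 1 at a minimum mean of 5 TPM and 4 at 1.5-fold, and 0 rose in both at a minimum mean of 5 TPM. Of the genes that passed each filter, the percentage that fell in both lines was 7.54 with a pseudocount of 0.1 TPM, 2.38 when centred, 2.46 with structural RNA genes removed, 2.40 over all genes above 0 TPM and 15.6 at 1.5-fold, and the percentage that rose in both was 1.03, 1.04, 1.87, 0.273 and 1.77. NRARP is left out at a minimum mean of 5 TPM. Leaving out a library leaves the fit over both lines no residual degree of freedom. TPM keep no depth, so neither counting error nor the precision of low values such as those of HES1 in RD shSKP2 and NRARP in JR1 shSKP2 can be given.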
